A study of Mus musculus with 8 samples.

Results

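The 10 genes described here, Asns, Psat1, Phgdh, Shmt2, Mthfd2, Slc7a11, Slc7a5, Slc3a2, Trib3 and Chac1, are well-known targets of the transcription factor ATF4 in amino acid and serine metabolism. They were picked by name, with no measured value in the rule, but with earlier results of these data known. Their counts set beside shares over all genes are thus no independent test. All 10 were found by symbol among the 32285 genes of the count matrices. Their RNA was followed in epithelial cells of mouse tongue, in 8 single-cell libraries of 4 groups with 2 libraries each, 15 days after transgene induction. Every mouse carried Krt14-CreERT, a tamoxifen-dependent Cre recombinase driven by the promoter of the basal keratin gene Krt14, and LSL-rtTA, the doxycycline-dependent activator released by Cre. Group N had only these alleles, group E also had tetON_E6-E7 (the oncogenes of a human papillomavirus), group Y had tetON_YAP1S127A (a YAP1 without 1 of the phosphorylation sites through which the Hippo kinases restrain it), and group EY had both. Per the study's methods, an H2B-GFP reporter was present in all groups, tamoxifen was injected into the tongue, doxycycline was given as chow, the mice were young adult littermates, and cells were sorted for viability. Transgenes could therefore be switched on only in cells that used the Krt14 promoter and their descendants. The 2 libraries of a group are numbered, as N1 and N2. Several animal numbers stand in the title of N2, which may therefore be a pool.

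ATF4 is a transcription factor made when the integrated stress response slows general protein synthesis, for example when amino acids run short or the endoplasmic reticulum is stressed, and it is also raised by growth signalling through mTORC1. Its messenger RNA is controlled largely at translation, so the RNA of its targets is the usual readout. The targets include enzymes that make asparagine, serine and one-carbon units, carriers that bring amino acids into the cell, and 2 genes, Trib3 and Chac1, that are known as markers of a strong response.

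Epithelial cells were those in which Krt5, Krt14, Krt15, Krt13 and Krt6a together made up at least 0.5% of UMIs (unique molecular identifiers, 1 per captured RNA molecule) and which had no UMI of the leukocyte gene Ptprc. They numbered 12957 of the 42550 barcodes. N1 gave 3447 of them and N2 415, E1 gave 4055 and E2 553, Y1 gave 1289 and Y2 1001, and EY1 gave 170 and EY2 2027. Their summed UMIs ranged from 2454816 in EY1 to 55154619 in E1, and the members held 10 to 13426 UMIs in the EY libraries and 6 to 12305 in the others. All 11 keratinocyte markers were detected in every library and summed to between 23021 and 27618 CPM, counts scaled to a common library total (for markers, and for Ptprc-positive cells, without edgeR's TMM factors, which the values of members and all other genes in epithelial cells include). Immune markers, with Ptprc at 0 by the rule, summed to 2265 CPM in EY1 and 652 CPM in EY2 against 47.4 to 220 CPM in the other libraries, and most of this was S100a8 and S100a9. The fibroblast gene Dcn stood at 27.0 CPM in EY2, 252 CPM in EY1 and 336 CPM or more elsewhere, while no other fibroblast marker passed 3 CPM. Cells in cycle made up 77.5% of the epithelial cells in EY2, 55.0% in EY1 and 24.8 to 43.7% in the other libraries. Yap1 stood at 31.5 to 46.1 CPM in the 4 libraries without the YAP transgene and at 174 to 447 CPM in the 4 with it. RNA of E6-E7 was not measured here, and cells were not chosen by the reporter or by transgene RNA. Between 2 and 19 barcodes were shared by any pair of libraries, at most 0.393% of the smaller one.

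Genes that ATF4 activates often carry the composite element TGATGNAA near their start, and the promoters were read for it to show which members carry it there. RefSeq (GRCm38.p6) gave the 250 bases before and 50 bases after the start of 9 members. The start in this paragraph is that of RefSeq. The gene positions given below come from another annotation, and their ends can differ from it. On both strands together, the 8 letters occurred in the windows of 4 members, namely Chac1, Slc7a11, Asns and Trib3, and in 4.51% of all 27025 genes with such a window. The more specific form TGATGCAA occurred in 1.03% of genes. In Trib3 the match lay past the RefSeq start, with its first base at position 15, but outside the gene position given below. No match lay in these windows of Phgdh, Psat1, Shmt2, Mthfd2 or Slc3a2. The windows of Mthfd2 (83317555 to 83317854) and Slc3a2 (8713848 to 8714147) lay well inside the gene positions given below. So did those of Psat1 (15925010 to 15925309 and 15924573 to 15924872). The bases around the outer ends of these genes were not read. The stretch around the matches is shown for the other 3 members, 5′ to 3′ on the gene's strand, with the matches in capitals. It covers chr2:119351003-119351102 (plus strand) for Chac1, chr3:50443617-50443716 (minus strand) for Slc7a11 and chr6:7693210-7693309 (minus strand) for Asns.
Chac1: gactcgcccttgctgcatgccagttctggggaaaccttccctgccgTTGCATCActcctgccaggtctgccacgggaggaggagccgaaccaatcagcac
Slc7a11: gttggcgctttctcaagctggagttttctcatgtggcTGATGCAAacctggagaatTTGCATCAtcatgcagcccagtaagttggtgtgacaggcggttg
Asns: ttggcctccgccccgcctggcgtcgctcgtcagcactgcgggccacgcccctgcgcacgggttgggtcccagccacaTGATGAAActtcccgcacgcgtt
The match in Chac1 reads TTGCATCA, which is TGATGCAA on the opposite strand, and begins 193 bases before the start. Slc7a11 holds the same 8 letters in both orientations, beginning 66 and 47 bases before the start. Asns holds TGATGAAA, beginning 23 bases before the RefSeq start, at a place inside the gene position given below.

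In the EY group, asparagine synthetase, the enzymes Psat1 and Shmt2 and the stress markers Trib3 and Chac1 were higher than in N. The fold changes were 2.75 to 3.26 for the enzymes and 11.3 and 15.1 for the markers. In EY against N, 5 of 10 members were called higher (Asns, Psat1, Shmt2, Trib3 and Chac1; edgeR quasi-likelihood test, Benjamini-Hochberg adjusted p under 0.05 over 13555 genes) and none lower. Of all genes tested, 18.8% were called, 9.31% higher and 9.50% lower. The median log2 fold change was 1.57 over the members and −0.05 over all genes. The YAP transgene effect, estimated from all 8 libraries with E6-E7 as the other term, was called for 4 members (Psat1, Phgdh, Shmt2 and Chac1), all higher, where 5.26% of genes were called higher. The E6-E7 transgene effect was called for 0 of the 10, where 0.406% of genes were called. DESeq2 also called 0 of the 10, and 293 of 13555 genes. For 1 member, Trib3, the unadjusted p was under 0.05, as it was for 1554 of 13555 genes. In a bulk sum of this kind, fewer expressing cells and less RNA per cell cannot be told apart.

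**Figure D1:**
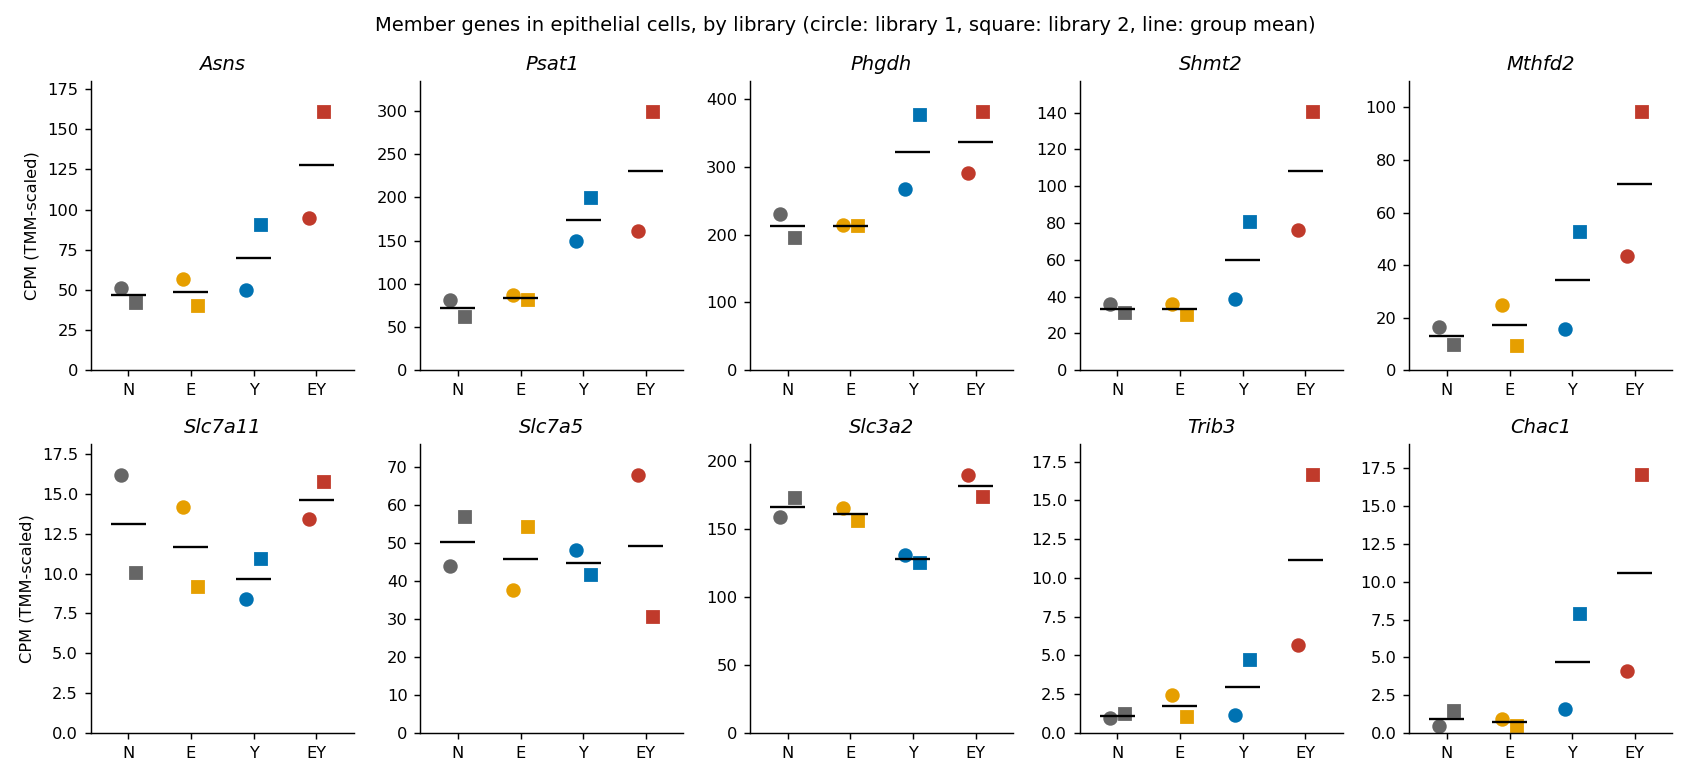
CPM of each member in epithelial cells on the vertical axis, by group on the horizontal axis, with a point per library (circle for library 1, square for library 2) and a line at the group mean. For Psat1, Phgdh, Shmt2 and Chac1 all 4 libraries with the YAP transgene lie above the 4 without it, while Slc7a11 and Slc7a5 overlap between N and EY.

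Phgdh (chromosome 3, 98313170 to 98339990, minus strand, GRCm38 as are all positions of genes here) encodes the enzyme that commits the glycolytic intermediate 3-phosphoglycerate to serine synthesis. It stood at 231 CPM in N1, 194 CPM in N2, 214 CPM in E1, 212 CPM in E2, 267 CPM in Y1, 376 CPM in Y2, 291 CPM in EY1 and 381 CPM in EY2. The lowest library with the YAP transgene, Y1, was above the highest without it, N1. Its YAP transgene effect was a log2 fold change of 0.63 (SE 0.14, edgeR adjusted p = 0.0351). In EY against N the log2 fold change was 0.66 (SE 0.21), and it was not called (adjusted p = 0.0633).

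Psat1 (chromosome 19, 15904678 to 15947337, minus strand) encodes the next enzyme of the pathway, a transaminase. It stood at 81.7 CPM in N1, 61.8 CPM in N2, 86.6 CPM in E1 and 81.0 CPM in E2. With the YAP transgene it stood at 149 CPM in Y1, 200 CPM in Y2, 161 CPM in EY1 and 299 CPM in EY2. The lowest library with the transgene was thus well above the highest without it. The group means were 71.8 ± 14.1 CPM in N, 83.8 ± 4.01 CPM in E, 174 ± 35.8 CPM in Y and 230 ± 97.3 CPM in EY (SD, n = 2 each). The log2 fold change was 1.69 (SE 0.31, edgeR adjusted p = 0.0172) in EY against N and 1.37 (SE 0.21, adjusted p = 0.00885) for the YAP transgene effect. Of the members, only Psat1 had a YAP transgene effect that was called in each of 20 alternative analyses, with a log2 fold change between 1.14 and 1.52 in them.

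Shmt2 (chromosome 10, 127517123 to 127522444, minus strand) encodes the mitochondrial enzyme that splits serine into glycine and a one-carbon unit. It stood at 35.8 CPM in N1, 31.2 CPM in N2, 36.1 CPM in E1, 30.0 CPM in E2, 39.0 CPM in Y1, 80.4 CPM in Y2, 76.4 CPM in EY1 and 140 CPM in EY2. Y1 was barely above the libraries without the YAP transgene, and the other 3 with it were more than 2 times as high. The log2 fold change was 1.71 (SE 0.39, edgeR adjusted p = 0.0277) in EY against N and 1.28 (SE 0.30, adjusted p = 0.0391) for the YAP transgene effect.

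Mthfd2 (chromosome 6, 83305691 to 83325908, minus strand) encodes the mitochondrial dehydrogenase that takes the one-carbon unit onward. It stood at 16.6 CPM in N1, 9.77 CPM in N2, 24.9 CPM in E1, 9.17 CPM in E2, 15.8 CPM in Y1, 52.7 CPM in Y2, 43.5 CPM in EY1 and 98.2 CPM in EY2. Y1 lay within the range of the N and E libraries, and Y2, EY1 and EY2 lay above it. Its log2 fold change of 2.43 (SE 0.71) in EY against N was not called (edgeR adjusted p = 0.0518), nor was its YAP transgene effect of 1.71 (SE 0.48, adjusted p = 0.0585).

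Asns (chromosome 6, 7675169 to 7693254, minus strand) encodes asparagine synthetase, which makes asparagine from aspartate and glutamine. It stood at 51.5 CPM in N1, 42.1 CPM in N2, 56.6 CPM in E1, 40.2 CPM in E2, 49.8 CPM in Y1, 90.2 CPM in Y2, 95.1 CPM in EY1 and 161 CPM in EY2. Y1 again lay among the N and E libraries. The log2 fold change was 1.46 (SE 0.36, edgeR adjusted p = 0.0329) in EY against N, and the YAP transgene effect of 0.99 (SE 0.28) was not called (adjusted p = 0.0579).

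Trib3 (chromosome 2, 152337422 to 152344032, minus strand) encodes a pseudokinase that feeds back on ATF4 and its partner CHOP. It was counted at 50 UMIs (0.988 CPM) in N1 and 10 UMIs (1.19 CPM) in N2, at 140 UMIs (2.44 CPM) in E1 and 13 UMIs (1.04 CPM) in E2, at 28 UMIs (1.19 CPM) in Y1 and 93 UMIs (4.68 CPM) in Y2, and at 14 UMIs (5.69 CPM) in EY1 and 587 UMIs (16.7 CPM) in EY2. EY2 and EY1 were the highest libraries and Y2 the next. The log2 fold change in EY against N was 3.50 (SE 0.80, edgeR adjusted p = 0.0277), and the YAP transgene effect of 2.12 (SE 0.56) was not called (adjusted p = 0.0513).

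Chac1 (chromosome 2, 119351229 to 119354381, plus strand) encodes an enzyme that breaks down glutathione. It was counted at 23 UMIs (0.454 CPM) in N1 and 12 UMIs (1.43 CPM) in N2, at 54 UMIs (0.940 CPM) in E1 and 6 UMIs (0.478 CPM) in E2, at 37 UMIs (1.57 CPM) in Y1 and 156 UMIs (7.85 CPM) in Y2, and at 10 UMIs (4.06 CPM) in EY1 and 602 UMIs (17.1 CPM) in EY2. The step from N2 to Y1 was small and rested on few UMIs. The log2 fold change was 3.91 (SE 1.03, edgeR adjusted p = 0.0397) in EY against N and 3.28 (SE 0.72, adjusted p = 0.0317) for the YAP transgene effect.

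None of the 3 carriers was called in these comparisons. Slc3a2 (chromosome 19, 8706882 to 8723369, minus strand) encodes the heavy chain shared by several amino acid exchangers. It stood at 159 CPM in N1, 173 CPM in N2, 166 CPM in E1, 156 CPM in E2, 131 CPM in Y1, 125 CPM in Y2, 190 CPM in EY1 and 174 CPM in EY2. Both Y libraries were the lowest of the 8 and EY1 the highest, while EY2 and N2 were nearly level. Its log2 fold change was 0.13 (SE 0.13, edgeR adjusted p = 0.497) in EY against N, −0.38 (SE 0.13, adjusted p = 0.300) in Y against N and 0.50 (SE 0.13, adjusted p = 0.0913) in EY against Y, and none of these was called. Slc3a2 was the only member whose interaction term had an unadjusted p under 0.05 (log2 0.55, SE 0.18, adjusted p = 0.377).

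Slc7a5 (chromosome 8, 121881150 to 121907694, minus strand) encodes LAT1, the light chain that imports leucine and other large neutral amino acids. It stood at 43.8 CPM in N1, 56.7 CPM in N2, 37.5 CPM in E1, 54.0 CPM in E2, 48.1 CPM in Y1, 41.4 CPM in Y2, 67.8 CPM in EY1 and 30.4 CPM in EY2. The 2 EY libraries were the highest and the lowest of all 8. Its log2 fold change in EY against N was −0.08 (SE 0.37, edgeR adjusted p = 0.893). Slc7a11 (chromosome 3, 49892526 to 50443614, minus strand) encodes xCT, the light chain that imports cystine in exchange for glutamate. It stood at 16.2 CPM in N1, 10.0 CPM in N2, 14.2 CPM in E1, 9.17 CPM in E2, 8.39 CPM in Y1, 10.9 CPM in Y2, 13.4 CPM in EY1 and 15.8 CPM in EY2. Both EY libraries lay between N2 and N1, and the log2 fold change in EY against N was 0.16 (SE 0.32, edgeR adjusted p = 0.742).

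**Figure D2:**
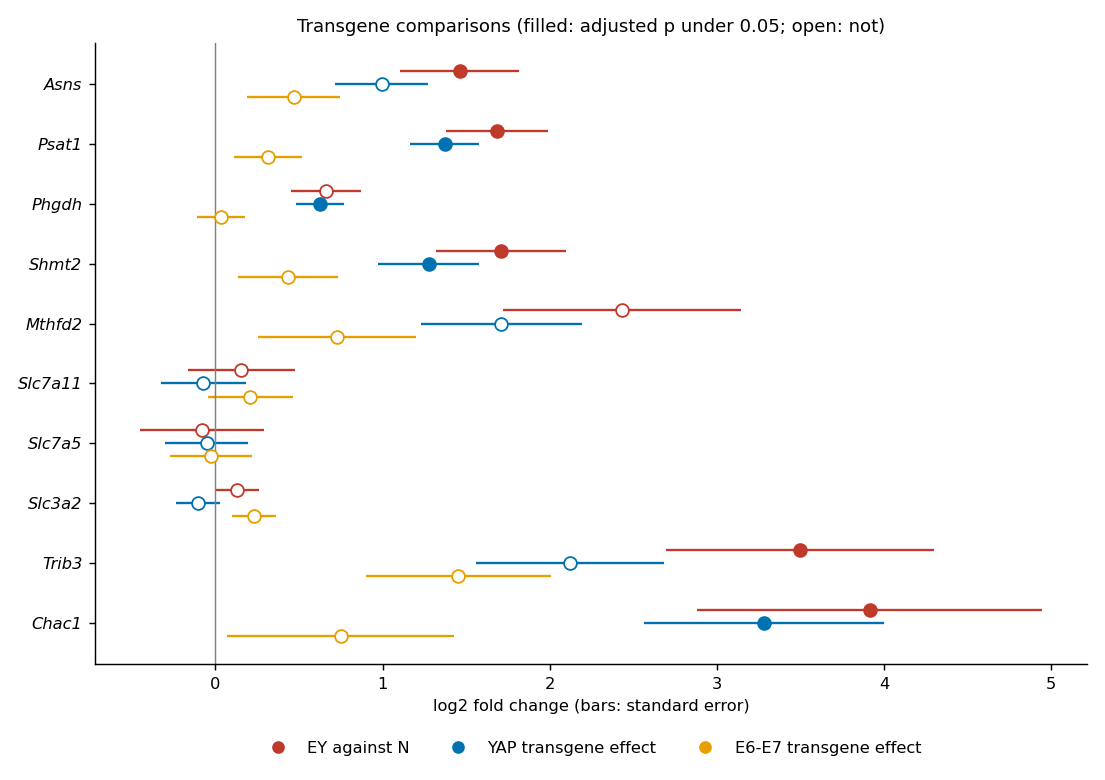
Log2 fold change (horizontal axis, with bars of 1 standard error) of each member in EY against N, for the YAP transgene effect and for the E6-E7 transgene effect, with filled points where the adjusted p is under 0.05. The 7 enzymes and stress markers lie between 0.66 and 3.91 in EY against N, and the 3 carriers between −0.08 and 0.16.

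Atf4 itself (the factor's own RNA) stood at 140 CPM in N1, 93.2 CPM in N2, 130 CPM in E1, 84.4 CPM in E2, 102 CPM in Y1, 119 CPM in Y2, 145 CPM in EY1 and 174 CPM in EY2. Its log2 fold change of 0.45 (SE 0.27) in EY against N was not called (edgeR adjusted p = 0.247), and its YAP transgene effect of 0.25 (SE 0.21) was not called either (adjusted p = 0.445). Ddit3, which encodes the ATF4 partner CHOP, differed by a log2 fold change of −0.06 (SE 0.25, adjusted p = 0.883) in EY against N.

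The single transgenes gave no call among the members. Y against N was called for 0 of 10 members, where 0.457% of genes were called. An unadjusted p under 0.05 was found for 4 members (Psat1, Phgdh, Chac1 and, in the lower direction, Slc3a2) and for 1649 of 13555 genes. DESeq2 called 1 of 10, Psat1, and 457 of 13555 genes. Both Y libraries were above both N libraries for 4 members (Psat1, Phgdh, Shmt2 and Chac1), a pattern seen in 24.1% of genes. The Y libraries differed from each other: Psat1 was above both N libraries in each (log2 fold change 1.28, SE 0.30, edgeR adjusted p = 0.133), while Asns, Mthfd2 and Trib3 were near the N level in Y1 and above it in Y2. E against N was called for 0 of 10 members, where 0.243% of genes were called. The members' median log2 fold change in E against N was 0.01. No member had an unadjusted p under 0.05, where 506 of 13555 genes had one. DESeq2 called none of the members and 131 of 13555 genes. Group N is shared by these 2 contrasts and by EY against N, so they are not independent of each other.

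With the YAP transgene added to E6-E7, the same 5 members as in EY against N were called. EY against E was called higher for 5 of 10 members, namely Asns (1.41, SE 0.36), Psat1 (1.47, SE 0.30), Shmt2 (1.73, SE 0.39), Trib3 (2.70, SE 0.74) and Chac1 (3.90, SE 0.98) on the log2 scale, with edgeR adjusted p between 0.0247 and 0.0469, where 7.97% of genes were called higher. With E6-E7 added to the YAP transgene, EY against Y was called for 0 of 10, where 0.0443% of genes were called. In it 3 members had an unadjusted p under 0.05 (Asns, Trib3 and Slc3a2), as had 3169 of 13555 genes. DESeq2 called 1 of 10, Slc3a2, and 873 of 13555 genes. All 10 members had a higher fitted level in EY than in Y, with a median log2 fold change of 0.75, against −0.05 over all genes. The single libraries overlapped for many members. EY1 lay below Y2 for Psat1, Phgdh, Shmt2, Mthfd2 and Chac1, and Slc7a5 in EY2 lay below both Y libraries. The calls in EY against E rested on few libraries too. Without E1, E2, EY2, N1 or N2, fewer members were called in it, and fewer genes in general. With cycling cells left out, 2 members and 1360 of 12291 genes were called in EY against E. The interaction compares the joint effect with the 2 single effects added on the log2 scale. It was called for 0 of 10 members (DESeq2 also 0) and for 0% of all genes, of which 1562 had an unadjusted p under 0.05. The members' interaction terms ranged from 0.06 (SE 0.30) for Phgdh to 1.29 (SE 1.37) for Chac1.

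These calls rested on few libraries. The 4 libraries with the YAP transgene were all above the 4 without it for 4 members, against 9.41% of genes. Both EY libraries were above both N libraries for 8 of the 10, against 28.7% of genes. For 7 of these 8, all but Slc3a2, EY2 was higher than EY1. Without EY2 the log2 fold changes in EY against N were 1.01 for Asns, 1.15 for Psat1, 1.17 for Shmt2, 2.40 for Trib3 and 2.35 for Chac1. Without N1, or without N2, the log2 fold changes of these 5 lay between 1.35 and 4.69. With EY2, N1 or N2 left out, fewer members and fewer genes in general were called. Without EY1, the library with the fewest cells, more of both were called. The log2 fold changes were then 1.80 for Asns, 2.08 for Psat1, 2.09 for Shmt2, 3.99 for Trib3 and 4.52 for Chac1. Immune transcripts and the share of cycling cells were also highest in the EY libraries. With cells left out that held at least 2 UMIs of other lineages' genes, 7 members were called in EY against N. In that setting 3466 of 12465 genes were called. With Dcn not counted among those genes, 7 members and 3193 of 13307 genes were called. With Dcn counted, the cells to leave out made up 57.2% of the epithelial cells of N1 and 62.9% of N2. They made up 32.9% in EY1 and 7.65% in EY2. S100a8 and S100a9 were not among those genes, and their part in the result was not tested.

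Within libraries, the 4 enzymes of serine and one-carbon metabolism were higher in cycling cells. Cells were split by 15 cycle genes, none of them a member, and cycling cells were compared with the other epithelial cells with the library as a block. In this comparison 4 of 10 members were called higher and none lower, where 14.0% of genes were called higher. Mthfd2 rose by a log2 fold change of 0.78 (SE 0.17, edgeR adjusted p = 0.00481), Shmt2 by 0.33 (SE 0.07, adjusted p = 0.00332), Psat1 by 0.31 (SE 0.05, adjusted p = 0.00124) and Phgdh by 0.26 (SE 0.05, adjusted p = 0.00156). Mthfd2 stood at 26.3 CPM in the cycling and 11.5 CPM in the other cells of N1, at 26.7 and 11.3 CPM in Y1, at 64.6 and 27.7 CPM in EY1, but at 98.2 and 107 CPM in EY2. The cycling cells held more than 2 times as much in N1, Y1 and EY1, and slightly less in EY2. Asns (log2 fold change −0.04, SE 0.07), Trib3 (−0.11, SE 0.23) and Chac1 (−0.49, SE 0.36) were not called.

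With cycling cells left out altogether, 3 of 10 members were still called in EY against N, where 14.1% of genes were called. They were Psat1 (log2 fold change 1.59, SE 0.34, edgeR adjusted p = 0.0283), Shmt2 (1.58, SE 0.42, adjusted p = 0.0451) and Trib3 (3.61, SE 0.92, adjusted p = 0.0427). Asns (1.52, SE 0.44), Mthfd2 (2.76, SE 0.82) and Chac1 (3.86, SE 1.36) were not called in these cells, with adjusted p from 0.0563 to 0.0899. The YAP transgene effect in these cells was called for 1 of 10 members, Psat1 (1.32, SE 0.23, adjusted p = 0.0145), where 7.24% of genes were called. The fold changes of these 6 members in EY against N were close to those in all cells, the farthest being that of Mthfd2 (2.76 against 2.43). EY1 gave only 76 such cells. In them Chac1 stood at 0 CPM, below N2 at 1.89 CPM, and Trib3 at 3.64 CPM. In EY2 Chac1 stood at 22.8 CPM and Trib3 at 18.6 CPM, so the Chac1 value came from EY2 alone and that of Trib3 mostly so.

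**Figure D3:**
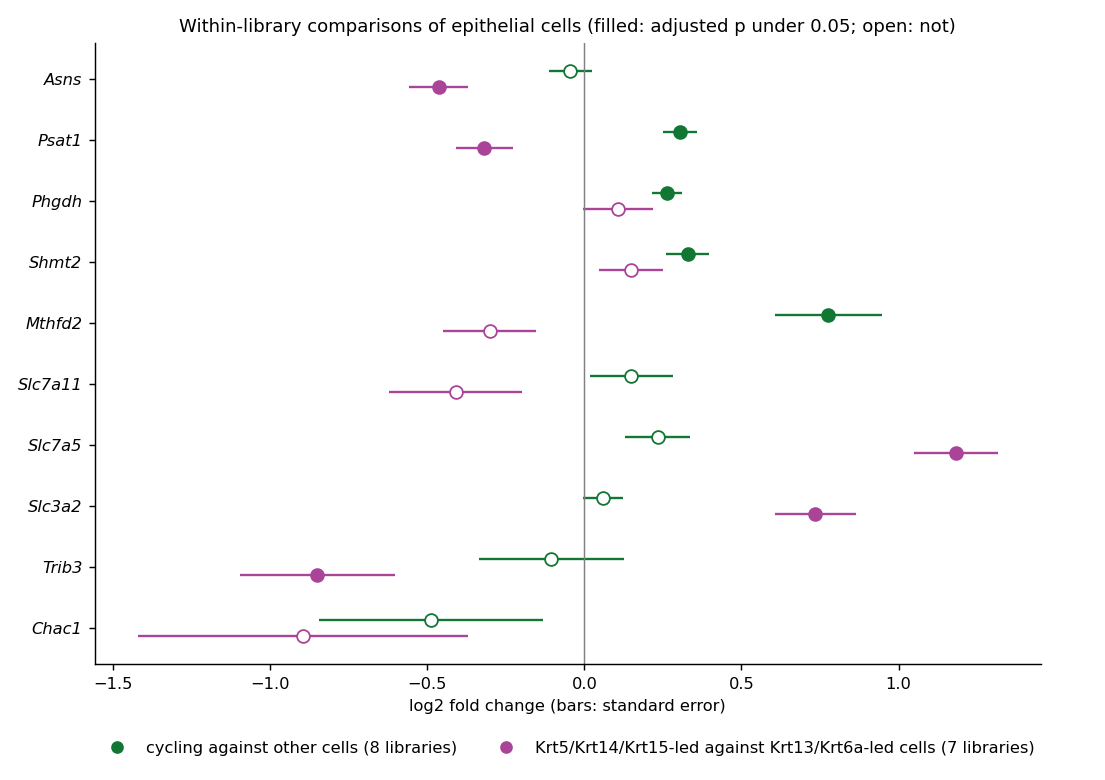
Log2 fold change (horizontal axis, with bars of 1 standard error) of each member between cycling and other epithelial cells and between cells led by Krt5, Krt14 and Krt15 and cells led by Krt13 and Krt6a, each within libraries, with filled points where the adjusted p is under 0.05. The 4 serine and one-carbon enzymes lie between 0.26 and 0.78 for cycling cells, and Slc7a5 and Slc3a2 lie at 1.18 and 0.74 for Krt5, Krt14 and Krt15-led cells.

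Of the carriers, Slc7a5 and Slc3a2 differed between keratin classes of cells. Krt5, Krt14 and Krt15 mark basal cells and Krt13 and Krt6a mark suprabasal or activated ones, so cells were split by which of these made up at least 50% of the 5 keratins' UMIs, and 7 libraries had at least 20 cells on each side (EY1 did not). Cells led by Krt5, Krt14 and Krt15 were called higher for 2 members, where 18.5% of genes were called higher, and lower for 3, where 15.3% were called lower. Slc7a5 was higher by a log2 fold change of 1.18 (SE 0.13, edgeR adjusted p = 4.07e-05) and Slc3a2, its heavy chain, by 0.74 (SE 0.13, adjusted p = 0.00100). Slc7a5 stood at 47.9 against 17.0 CPM in N1, 57.0 against 31.3 CPM in N2, 40.3 against 16.4 CPM in E1, 55.7 against 13.2 CPM in E2, 49.2 against 25.7 CPM in Y1, 42.9 against 22.8 CPM in Y2 and 30.4 against 18.5 CPM in EY2. It was higher in the Krt5, Krt14 and Krt15-led cells of all 7 libraries. Asns (−0.46, SE 0.09, adjusted p = 0.00281), Psat1 (−0.32, SE 0.09, adjusted p = 0.0169) and Trib3 (−0.85, SE 0.25, adjusted p = 0.0196) were lower there. In EY2, the only EY library compared, Psat1 (294 against 283 CPM) and Trib3 (16.4 against 14.3 CPM) were slightly higher instead. Both were lower in every other library. For Trib3 this rested on very few UMIs in N2 and E2, which had 34 and 61 cells led by Krt13 and Krt6a. Asns stood at 45.6 against 75.2 CPM in N1, 49.7 against 84.5 CPM in E1, 86.5 against 99.1 CPM in Y2 and 157 against 175 CPM in EY2.

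Counted cell by cell at an equal depth of 2000 UMIs, the share of cells holding several members at once was highest in the EY libraries. At least 3 of the 10 members were found in 7.37% of the cells of N1 and 6.75% of N2, in 7.65% of E1 and 6.15% of E2, in 9.47% of Y1 and 16.2% of Y2, and in 18.3% of EY1 and 31.4% of EY2. No member was found in 31.9% of the cells of N1 and 38.1% of N2, in 29.7% of E1 and 32.7% of E2, in 28.5% of Y1 and 21.4% of Y2, and in 18.3% of EY1 and 11.1% of EY2. EY1 gave 169 cells to these shares.

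**Figure D4:**
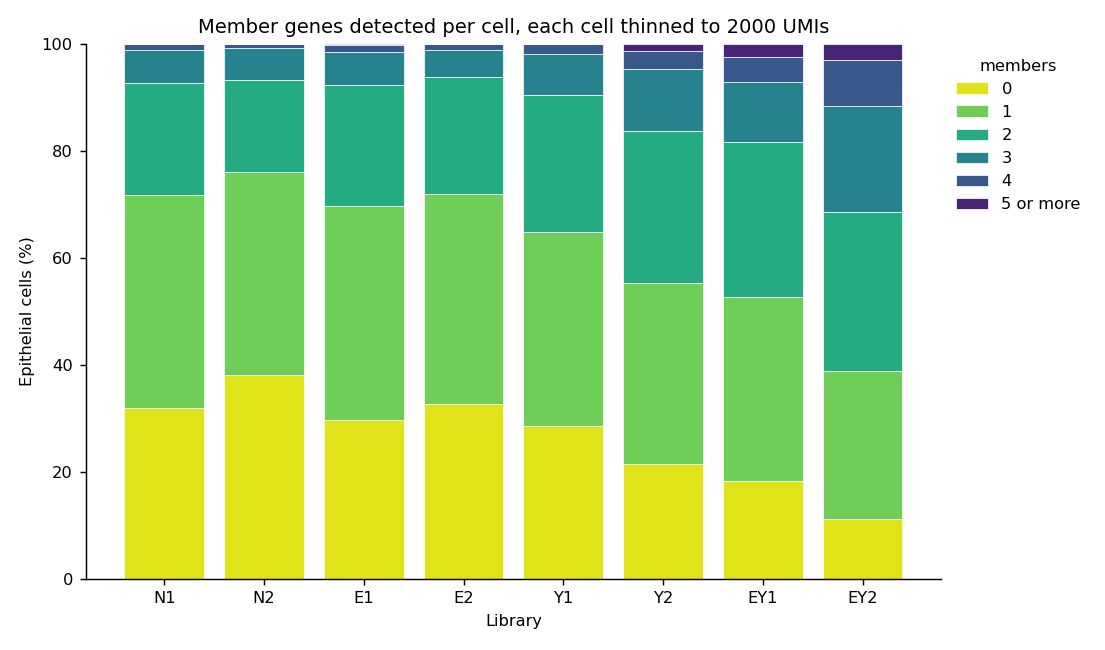
Share of epithelial cells (vertical axis, percent) with 0, 1, 2, 3, 4 or 5 and more of the 10 members detected, per library on the horizontal axis, after each cell was thinned to 2000 UMIs. Cells with no member make up 31.9% of N1 and 38.1% of N2, against 18.3% of EY1 and 11.1% of EY2.

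Psat1 was detected in 13.7% of the cells of N1 (12.6 to 14.9%, 95% intervals by the exact Clopper-Pearson method) and 13.5% of those of N2, against 32.5% in EY1 (25.5 to 40.2%) and 41.2% in EY2 (39.1 to 43.4%). It was detected in 1.73 to 8.78% of Ptprc-positive cells of the same libraries at the same depth. Mthfd2 was detected in 2.70% of cells in N1 and 1.69% in N2, against 13.6% in EY1 and 17.7% in EY2, and in 2.63 to 6.97% of Ptprc-positive cells. The Ptprc-positive cells themselves held Mthfd2 at a higher level than the epithelial cells in both N libraries (28.5 against 9.77 CPM in N2), so their share is no measure of free RNA for this gene. Chac1 was detected in 62 of 2027 cells of EY2 (3.06%, 2.35 to 3.90%), in 2 of 169 cells of EY1 and in 0 of 553 cells of E2. By the same method the last allows a share of up to 0.665%. These intervals cover counting error only.

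Beyond the members, 6 lists of related genes, also chosen with earlier results known, were counted in EY against N. Of 97 tested genes, 16 were called higher and 7 lower, where 9.31% of all genes were called higher and 9.50% lower. Of 19 genes of the stress sensors and the ATF4 axis, 3 were called higher, none lower, and the median log2 fold change was 0.08. Eif4ebp1, which encodes the translation repressor 4E-BP1, stood at 50.5 and 47.8 CPM in N, 100 and 156 CPM in Y and 171 and 302 CPM in EY (log2 fold change 2.27, SE 0.31, edgeR adjusted p = 0.00948). The others were Eif2s1 and Eif2ak2, named after their values were seen. Unlike the members, Eif2ak2 was highest in E, at 86.4 and 77.4 CPM. It stood at 30.2 and 23.8 CPM in N, 33.2 and 49.4 CPM in Y and 51.6 and 56.9 CPM in EY. Nupr1 (1.74, SE 0.62, adjusted p = 0.0814) and Atf3 (−1.13, SE 0.33, adjusted p = 0.0505) were not called.

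The aminoacyl-tRNA synthetases load amino acids onto tRNAs. Their list also held the tRNA exporter Xpot (log2 fold change 0.05, SE 0.20, edgeR adjusted p = 0.866). Of the 19 listed genes tested, Xpot included, 6 were called higher, all synthetases, and none lower. The median log2 fold change of the list was 0.75. Nars, for asparagine, stood at 136 and 185 CPM in N, 258 and 369 CPM in Y and 392 and 544 CPM in EY (1.54, SE 0.25, edgeR adjusted p = 0.0133). Gars, for glycine, rose by 1.45 (SE 0.28, adjusted p = 0.0194), and Cars, for cysteine, at 1.46 (SE 0.43, adjusted p = 0.0516) was not called.

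Of 18 other enzymes of serine, proline and one-carbon metabolism, 2 were called higher and 1 lower, near the shares over all genes, and the median was 0.30. Cth, the last enzyme of cysteine synthesis from methionine, was called (1.43, SE 0.21, edgeR adjusted p = 0.0108), while Tyms, the thymidylate synthase of nucleotide synthesis, was not (0.93, SE 0.61, adjusted p = 0.292). Shmt1, the cytosolic counterpart of Shmt2, was called higher (0.87, SE 0.20) and Gldc, of the glycine cleavage system, lower (−2.51, SE 0.64), both named after their values were seen. Of 15 other amino acid transporters tested, 3 were called higher, 2 lower, and the median was −0.14. Slc1a5, the glutamine carrier ASCT2, stood at 9.36 and 7.86 CPM in N, 16.6 and 18.6 CPM in Y and 26.0 and 33.6 CPM in EY (1.80, SE 0.20, edgeR adjusted p = 0.00760). Slc1a4, a carrier of serine and alanine, fell by 0.86 (SE 0.25, adjusted p = 0.0489), and Slc38a2, a further ATF4 target, was not called (0.21, SE 0.17, adjusted p = 0.383). Named after its values were seen, Slc1a1, a carrier of glutamate and cysteine, stood at 0.296 and 0.357 CPM in N, 2.03 and 8.20 CPM in Y and 10.2 and 11.9 CPM in EY (5.14, SE 0.76, adjusted p = 0.0110).

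The genes of glutathione synthesis and of the oxidative stress factor NRF2, which share Slc7a11 with the ATF4 targets, were called in both directions. Of 14 tested, 1 was called higher and 4 lower, with a median of 0.05. Hmox1, heme oxygenase, stood at 5.04 and 2.62 CPM in N, 13.6 and 21.9 CPM in Y and 34.1 and 42.2 CPM in EY (3.25, SE 0.38, edgeR adjusted p = 0.00784). Gclc, the catalytic subunit of the first enzyme of glutathione synthesis, fell by 1.22 (SE 0.29, adjusted p = 0.0313), and the quinone reductase Nqo1 fell by 1.20 (SE 0.30, adjusted p = 0.0342). Gclm and Gss, named after their values were seen, were the others called lower. Of 12 chaperones and genes of the other arms of the unfolded protein response, 1 was called, Sdf2l1 (0.85, SE 0.20, adjusted p = 0.0295), and the median was −0.08. Dnajb9 (−0.51, SE 0.46, adjusted p = 0.446) and Pdia4 (−0.40, SE 0.18, adjusted p = 0.144) were not called. Of the 15 cycle genes, 2 were called higher (Mcm5 and Mcm6), none lower, and the median was 0.58. Named after their values were seen, Mki67 (−0.24, SE 0.48), Cenpf (−0.49, SE 0.50) and Nusap1 (−0.36, SE 0.89) had negative log2 fold changes. The rest of the list had positive ones. The share of cells in cycle thus need not mean more of every cycle gene.

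**Figure D5:**
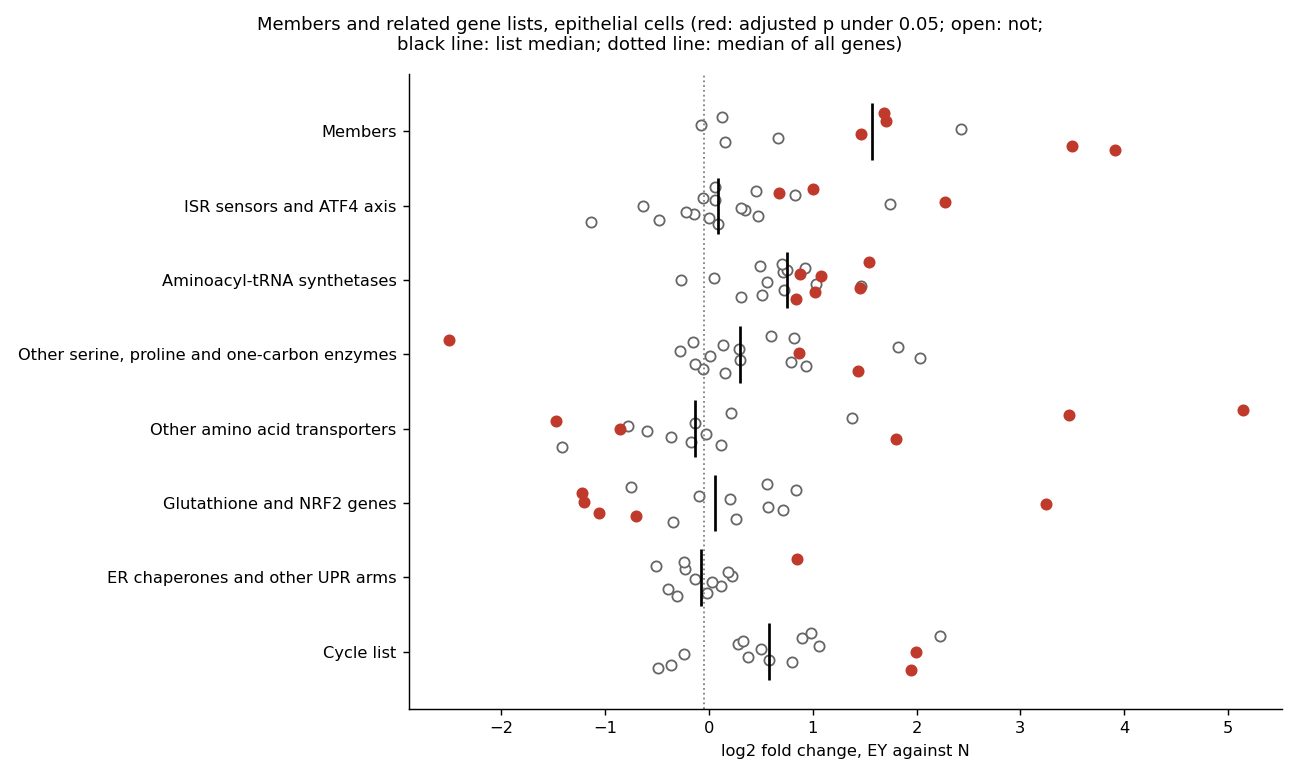
Log2 fold change in EY against N (horizontal axis) of each tested gene of the members and of the related lists (rows), in red where the adjusted p is under 0.05, with a black line at each list's median and a dotted line at the median of all genes. The members' median is 1.57, that of the list of tRNA synthetases, which includes Xpot, 0.75 and that of the chaperones −0.08.

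The genes whose levels followed the members most closely were sought among the 5104 or 5105 others that averaged 20 CPM or more, by Pearson's r of log2(CPM + 1) over the 8 libraries. These values are descriptive, and the libraries share group, depth and cycling share. For Asns they were Ptges3 (r = 0.997), Uchl5 (0.994) and Eif5 (0.992), for Shmt2 Ak6 (0.997), Ptges3 (0.990) and Ldha (0.990), and for Mthfd2 Cyp51 (0.990), Acat2 (0.990) and Cenpq (0.986). For Psat1 they were Endod1 (0.986), Ipo5 (0.984) and Rras (0.982), and for Phgdh Larp1 (0.986), Cisd1 (0.973) and Fads2 (0.966). For Trib3 they were Rpp30 (0.991), Psmc3 (0.991) and Lsm6 (0.990), and for Chac1 Phlda3 (0.990), Arhgdia (0.983) and Sec61a1 (0.982). The carriers had other partners, namely Nipa2 (0.968), Sec11c (0.942) and Ilf2 (0.940) for Slc7a11, Ube2g1 (0.987), Commd1 (0.967) and Ginm1 (0.938) for Slc7a5, and Brcc3 (0.918), Nrf1 (0.906) and Pxdc1 (0.891) for Slc3a2.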

How the data were processed

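Tongue epithelial cells were captured with a 3′ droplet kit. The authors counted UMIs with Cell Ranger 5.0.0 on mm10, and the deposited matrices hold raw counts per gene and barcode. The labels and the methods name different kit versions. The authors' limits were applied, with 1000 to 5500 genes and up to 30000 UMIs per cell, of which up to 7% mitochondrial. No doublet caller was used. Counts of the epithelial cells were summed per library, with 2 libraries per group as the replicates, and depth per library is in the report. Tests used R 4.3.3 with edgeR 4.0.16 (filterByExpr, TMM, quasi-likelihood, Benjamini-Hochberg over all genes, called under 0.05), with group means for the pairwise contrasts and interaction and additive terms for transgene effects. SE is |log2 fold change| over the root of F. DESeq2 1.42.0 was an alternative. Whether libraries of a group came from separate animals is given by the methods (2 mice per genotype) and by differing animal numbers.

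Cycling cells had at least 2 UMIs of the cycle list after thinning to 2000 UMIs. Ptprc-positive cells passed the same limits. Cells with fewer UMIs were left out of thinned values. Positions came from GENCODE M21. Shmt2 and Slc7a11 each overlap a gene on the other strand. The tests were checked on simulated counts. All members were named. For each list the 3 genes with the largest absolute log2 fold change in EY against N at a mean of 20 CPM or more in 1 group were named, with Atf4, and for likeness the 3 genes with the highest r. For 1 gene that this rule named, the result is not reported here. The members and lists were chosen with earlier results of these data known. Figures used Python 3.11.15, numpy 2.4.6, scipy 1.17.1, pandas 2.3.3 and matplotlib 3.10.9.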

Additional observations from a re-analysis of the deposited data

Results flagged for a closer look

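Within arms of 4 libraries, 1 library stood far from the other 3 in 5 of 40 member and arm combinations. Chance would mark about 1 in 20 sets of values drawn from a single distribution. That rate does not hold here, since each arm mixed groups that differ in a transgene and the arms shared libraries. Members of the same library are not independent either. In the arm without E6-E7, Y2 stood apart with 80.4 CPM of Shmt2 (next 39.0 CPM), 52.7 CPM of Mthfd2 (next 16.6 CPM), 4.68 CPM of Trib3 (next 1.19 CPM) and 7.85 CPM of Chac1 (next 1.57 CPM). In the arm without the YAP transgene, E1 stood apart with 2.44 CPM of Trib3 (next 1.19 CPM). Y2 also had 42.1% of its epithelial cells in cycle against 27.4% in Y1, and the part of this in its values was not tested.

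In Ptprc-positive cells, which no comparison used, 2 members were higher in both EY libraries than in both N libraries (CPM without TMM factors). Slc7a11 stood at 46.4 CPM in N1 and 86.5 CPM in N2, against 307 CPM in EY1 and 150 CPM in EY2. In the Y libraries it stood at 160 CPM in Y1 and 142 CPM in Y2. Trib3 stood at 0.481 CPM in N1 and 0.659 CPM in N2, against 1.89 CPM in EY1 and 8.89 CPM in EY2, on 2 and 8 UMIs in N. Which leukocytes made up these cells was not separated here, and the difference was not tested.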

How the results depend on the processing

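Counts of members called are out of 10, and the cause of each change was not tested. In EY against N (5 called), 10 of 12 other settings gave 5 to 7, leaving out cycling cells gave 3, and leaving out N2 and EY1 together (chosen after seeing the data, as were all settings for EY against Y, EY against E, the interaction and both comparisons within libraries) gave 1. Leaving out 1 library gave 0 (without N1, N2 or EY2) to 7 (without EY1), and 5 (without N1) to 4061 calls over all genes against 2550. Over all genes the other settings gave 1571 to 6042 calls in EY against N, and all 20 gave 206 to 6131 for the YAP transgene effect (1217 as reported) and 0 to 1504 for Y against N (62). The YAP transgene effect (4 called) gave 7 with DESeq2, with no filter on low counts, with no upper limit on genes and UMIs, with cells thinned to 2000 UMIs or without cells holding other lineages' markers, 1 without cycling cells or without N2 and EY1, and 1 to 7 with 1 library left out (7 without Y1, 2 without N2 or EY1, 1 without any other). EY against E (5 called) gave 2 without cycling cells, and 1360 calls over all genes against 2228. It gave fewer without E1, E2, EY2, N1 or N2 and more without EY1, both for the members and over all genes. Y against N (0 called) gave 1 with DESeq2 or thinned cells, 5 with no filter and 6 with no upper limit. EY against Y (0 called) gave 1 with DESeq2 or thinned cells, 5 with no filter and 2 with keratins of at least 2% of UMIs. Over all genes these settings gave 873, 855, 2117 and 1046 calls, against 6 as reported. The E6-E7 transgene effect (0 called) gave 2 with no filter, Trib3 and Mthfd2, where 765 of 21743 genes were called. E against N and the interaction gave 0 throughout. The Krt5, Krt14 and Krt15 comparison (5 called) gave 3 to 5 with 1 library left out (3 without E1), and the cycling comparison gave 4 to 5.

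Asns, Psat1, Shmt2, Mthfd2 and Trib3 had a positive log2 fold change in EY against N, the YAP transgene effect and the E6-E7 transgene effect under all 20 settings, and none of the 3 carriers was called in any of them. Directions that turned were those of small differences. In EY against N, Slc7a11 was −0.19 without cycling cells and −0.11 to 0.60 with 1 library left out, and Slc7a5 was 0.092 with no upper limit and −0.69 to 0.43 with 1 library left out. For the YAP transgene effect, Slc7a11 was 0.13 with keratins of at least 2%, 0.0095 with Krt5 and Krt14 alone, 0.28 without cells holding other lineages' markers and −0.25 to 0.20 with 1 library left out, and Slc7a5 was 0.092 with no upper limit and −0.32 to 0.12. For the E6-E7 transgene effect, Slc7a5 was 0.00080 with no upper limit, 0.057 without cycling cells and −0.30 to 0.15 with 1 library left out, Phgdh was −0.069 to 0.14 and Chac1 −0.12 (without EY2) to 1.20.

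No paired analysis was possible because the labels give no replicate numbers shared between groups. With 2 libraries per group, 1 of them with 170 cells, and 10 UMIs of Chac1 in EY1, depth limits the stress markers most. A lone library left in a group is assumed to vary like the other groups.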
